A study of Mus musculus with 6 samples.

Results

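The genes examined were Adcyap1, which encodes the neuropeptide PACAP, and Adcyap1r1, which encodes its selective receptor PAC1. They were chosen by symbol. The rule names 4 symbols, of which 2 matched 1 entry each among 13724 gene entries, and both passed the filter on low values. The receptors Vipr1 and Vipr2, which bind PACAP and vasoactive intestinal peptide (VIP) with like affinity, were not analysed here. The study chose Adcyap1 as a marker of warm-sensitive neurons on these same samples, so its level here is no independent evidence.

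The mice were wild type C57Bl6/J, and every one was exposed to warm temperatures. Tissue from each of 3 numbered warm challenges gave an immunoprecipitate of ribosomes carrying phosphorylated ribosomal protein S6 (IP) and an input of total RNA, so each group held 3 libraries. S6 is phosphorylated in active neurons, and this selection of their transcripts is called PhosphoTRAP. Per the labels' protocols, the anterior hypothalamus was cut from brain sections, and the tissue is named as preoptic neurons. All libraries share strain, genotype and warm exposure, and no group at another temperature was compared, so no value below ties a transcript to warmth. The labels do not say how many animals a warm challenge stands for, their age or their sex, so the p-values measure the spread between these libraries alone.

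PACAP is cut from a larger precursor by prohormone convertases, amidated and stored in dense-core vesicles. It acts on PAC1 and on both VIP receptors, which belong to the secretin family of G protein-coupled receptors. Through Gs they raise cAMP, which activates protein kinase A and the exchange factors called Epac, and PAC1 also couples to phospholipase C. In the hypothalamus PACAP takes part in the control of body temperature, feeding, stress and the circadian clock, and PAC1 is made by neurons and by astrocytes.

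The stretches before an annotated start of each gene are shown because cAMP signalling can induce genes through the cAMP response element. They are taken from RefSeq promoter windows of build GRCm38.p6, reach 100 bases up to the base before the start and read along the plus strand, chr17:93198917-93199016 for Adcyap1 and chr6:55451878-55451977 for Adcyap1r1. Capitals mark TGACG, the core of that element.
Adcyap1: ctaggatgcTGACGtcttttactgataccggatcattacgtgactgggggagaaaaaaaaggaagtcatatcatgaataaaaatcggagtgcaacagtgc
Adcyap1r1: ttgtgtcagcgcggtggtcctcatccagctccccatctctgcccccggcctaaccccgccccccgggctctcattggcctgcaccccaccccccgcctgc
The Adcyap1 stretch holds the core once, at 91 bases before the start, and the Adcyap1r1 window holds none. A later Adcyap1 start in the same table has the same copy, at 242 bases before it. Over 32851 windows (250 bases before to 50 after a start), 20.8% hold the core on either strand. The full palindrome TGACGTCA, which contains the core, is in 1.79% of windows and in none of these genes' windows, and the same holds for the AP-1 site TGACTCA, which is in 5.20% of windows. The 250 bases before the start were 39.6% G or C in Adcyap1 and 65.6% in Adcyap1r1. Such matches describe letters and show no factor at work, and whether longer transcripts cover these bases was not examined.

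Values are the authors' RPKM (reads scaled to gene length and library size), summing to between 374708 and 496125 per library. Across genes, Spearman correlations were 0.915 to 0.955 among IP libraries, 0.952 to 0.980 among inputs and 0.902 to 0.941 between the fractions. IP 1 stood apart: limma called 1693 of 12233 genes without it (13.8%) and 516 of 12328 with it (4.19%). The tissue named as neurons also held glial transcripts. Summed over 10 oligodendrocyte markers the level was 373 to 554 RPKM in IP and 1105 to 1219 RPKM in input, and 8 of the 10 were lower in IP, as were 3.29% of all genes tested. The log2 fold was -3.35 for Ermn (adjusted p = 0.00385 by limma) and -3.33 for Mal (adjusted p = 0.00131), which encode myelin proteins. The 4 listed erythroid markers summed to 202 to 567 RPKM in IP and 14.1 to 50.3 RPKM in input, and all 3 that were tested were called higher in IP, as were 0.892% of all genes. The log2 fold was 3.26 for Hbb-b1 (adjusted p = 0.0192) and 2.90 for Hba-a1 (adjusted p = 0.0240), globin genes whose near-identical copies make the values uncertain, and each was called in 1 of 6 omissions of 1 library. The part of these shifts in the results below was not tested.

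Adcyap1 RNA was far more abundant in the phospho-S6 fraction. Its level was 194, 67.1 and 59.0 RPKM in IP of warm challenges 1, 2 and 3, against 20.1, 9.20 and 3.98 RPKM in their inputs. The lowest IP value lay above the highest input value, so the fractions did not overlap, which also held in this direction for 6.85% of the genes tested. The mean was 107 ± 75.5 RPKM in IP and 11.1 ± 8.24 RPKM in input (SD, n = 3 each). In limma, a moderated linear model fitted over all genes, on log2(RPKM + 1), a scale that understates the change of low genes, the log2 fold was 3.18 (SE 0.56, 95% interval 1.92 to 4.43, adjusted p = 0.0257). Of 12328 genes tested, 0.892% were called higher in IP, and the fold of Adcyap1 ranked 4 among all. In bulk RNA, more cells of a type and more RNA per cell cannot be told apart.

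Adcyap1 stood near the top of the expression range in IP and lower in each input. Among all listed genes it stood at percentile 97.6, 90.8 and 90.1 in the 3 IP libraries, against 71.8, 52.4 and 31.3 in the inputs. Over all genes the log2 fold had a median of -0.18. Dividing each library by its own median shifted that value to -0.02 and gave Adcyap1 a log2 fold of 3.36 (adjusted p = 0.0240 by limma, with 0.982% of genes then called higher).

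**Figure D1:**
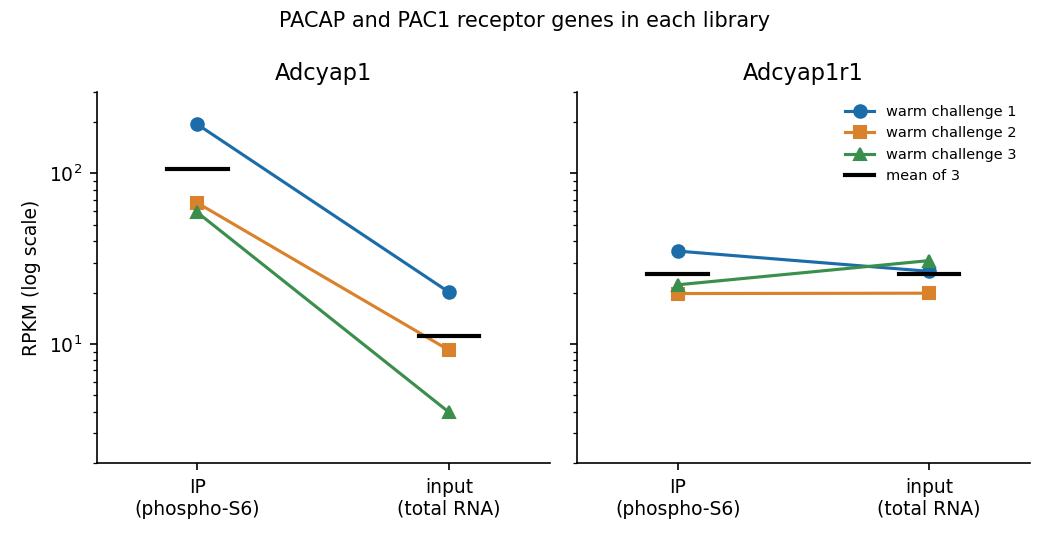
RPKM on a log axis of Adcyap1 (left) and Adcyap1r1 (right) in the 3 IP and 3 input libraries; lines join the libraries of 1 warm challenge and black bars are means of 3. All IP values of Adcyap1 lie above all its input values, with means of 107 and 11.1 RPKM, while the fractions of Adcyap1r1 overlap, with means of 25.7 and 25.8 RPKM.

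The level of Adcyap1 differed between warm challenges by more than its enrichment did. The highest library held 3.28 times the lowest in IP and 5.06 times the lowest in input. The ratio of IP to input was 9.62 in warm challenge 1, 7.29 in warm challenge 2 and 14.8 in warm challenge 3, so the highest ratio was 2.03 times the lowest. Warm challenge 1 gave the highest and warm challenge 3 the lowest level in both fractions, an order shared by 5.13% of the genes tested. A fit blocked by warm challenge, in which 1.33% of genes were called higher, gave Adcyap1 an SE of 0.22 and an adjusted p of 0.00676 (95% interval 2.66 to 3.70). Without the block the call was lost in some omissions of 1 library. The adjusted p by limma was 0.0555 without IP 2, 0.1004 without input 2 and 0.0791 without input 3, with log2 folds of 3.40, 3.17 and 2.66. Of all genes, 16, 4 and 6 were called higher in these omissions, against 110 with every library. With both libraries of a warm challenge left out, an omission added after seeing the data, the adjusted p was 0.0186 without warm challenge 1, 0.236 without 2 and 0.159 without 3. Of all genes, 93, 1 and 2 were then called higher.

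Adcyap1r1, the PAC1 receptor gene, showed no such difference between the fractions. It stood at 35.03, 19.7 and 22.2 RPKM in IP of warm challenges 1, 2 and 3, against 26.7, 19.8 and 30.8 RPKM in their inputs. The fractions overlapped, and the IP to input ratio was above 1 in warm challenge 1 (1.31), near 1 in warm challenge 2 (0.995) and below 1 in warm challenge 3 (0.721). The mean was 25.7 ± 8.20 RPKM in IP and 25.8 ± 5.54 RPKM in input (SD, n = 3 each). The log2 fold was -0.03 (SE 0.27, adjusted p = 0.971 by limma), and its 95% interval of -0.64 to 0.59 leaves room for changes of that size in either direction. The sign turned under both scalings, to 0.16 and 0.066, and in 4 of 6 omissions of 1 library. PAC1 is also an astrocyte gene, and astrocyte markers were measured beside it. Their sum over 10 genes was 296 to 322 RPKM in IP and 315 to 432 RPKM in input. The median log2 fold was -0.33, against -0.18 over all genes. Of the 10, 0 were called higher and 0 lower, where 0.892% of all genes were higher and 3.29% lower. With the block, 1 was called lower, where 3.99% of all genes were. Without IP 1, 2 were called lower, where 13.8% of all genes were called in either direction. The log2 fold of Aqp4, the astrocyte water channel, was -1.14 (adjusted p = 0.0616 unblocked and 0.0400 blocked), and that of Gfap, an astrocyte filament, was -1.07 (adjusted p = 0.0834). Aqp4 was low in IP, at 2.02, 0.459 and 1.29 RPKM in IP 1, 2 and 3. Aldh1l1 and S100b of the same list went the other way, at 0.30 (adjusted p = 0.517) and 0.07 (adjusted p = 0.914). The part of astrocyte RNA in the level of Adcyap1r1 was not tested.

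Between ligand and receptor, the balance differed by fraction. RPKM is scaled to gene length, and the ratio of both genes within a library does not depend on how libraries are scaled. Adcyap1 stood at 5.53, 3.40 and 2.65 times the RPKM of Adcyap1r1 in IP 1, 2 and 3, against 0.755, 0.464 and 0.129 times in inputs 1, 2 and 3. The ligand was thus the more abundant RNA in every IP library and the less abundant in every input. The mean log2 ratio was 1.88 in IP and -1.49 in input, a difference of 3.37 (exact two-sided permutation test, p = 0.10, the smallest that 3 against 3 libraries allow).

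Bdnf, a neurotrophin that the study paired with PACAP as a marker, had IP to input ratios of 10.9, 7.89 and 7.33 in warm challenges 1, 2 and 3. As for Adcyap1, its level here is no independent evidence. Adcyap1 stood at 2.40, 2.17 and 2.01 times the RPKM of Bdnf in IP 1, 2 and 3, against 2.72, 2.35 and 0.994 times in inputs 1, 2 and 3.

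Of the other ligands and receptors of the family, none passed in the main fit, where 4.19% of all genes did in either direction. Ghrh, growth hormone-releasing hormone, stood at 14.6, 5.16 and 17.2 RPKM in IP 1, 2 and 3, against 10.5, 3.78 and 0.211 RPKM in inputs 1, 2 and 3 (log2 fold 1.57, adjusted p = 0.217 by limma). Its fractions overlapped, and only in warm challenge 3 was the ratio far from 1. Vip, the nearest relative of PACAP, lay at 0.250 to 0.499 RPKM in IP and 0.143 to 1.22 RPKM in input, and did not reach 1 RPKM in the 3 libraries the filter asks for. Among 15 other secretin-family receptors and receptor-activity-modifying proteins, 8 were listed and 5 tested, with a median log2 fold of -0.33. Their largest shifts were those of Ramp2 (-0.74, adjusted p = 0.217) and Ramp1 (-0.64, adjusted p = 0.320), partners that modify calcitonin-family receptors. Without IP 1, 1 of the 5 tested was called higher, where 3.62% of all genes were.

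Among the genes that make a peptide from its precursor, Pcsk1 was higher in IP. It encodes prohormone convertase 1, which cuts neuropeptide precursors, and stood at 46.6, 12.6 and 15.1 RPKM in IP 1, 2 and 3, against 5.45, 3.24 and 3.92 RPKM in inputs 1, 2 and 3. The fractions did not overlap in this direction, as for 6.85% of genes tested, and the log2 fold was 2.09 (SE 0.43, adjusted p = 0.0358 by limma). This call held in 1 of 6 omissions of 1 library, that of IP 1. Pcsk2, the other main neuroendocrine convertase, had 0.86 (adjusted p = 0.0702, and 0.0497 with the block). Pam, which amidates peptides such as PACAP, had 0.76 (adjusted p = 0.296), and Cpe, which trims the cut ends, had 0.19 (adjusted p = 0.703). In all, 1 of 10 tested genes of processing and amidation was called higher and 0 lower, and the median was 0.08. Among all genes tested 0.892% were called higher and 3.29% lower. Of 5 enzymes that degrade peptides 0 passed, and Mme, neprilysin, had -0.56 (adjusted p = 0.427), while Ide had -0.21 (adjusted p = 0.647).

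Genes that carry the receptor's signal showed no call in the main fit, in which 4.19% of all genes were called in either direction. Of 23 tested G proteins, adenylyl cyclases, protein kinase A subunits, Epac proteins and phospholipases, 0 were higher and 0 lower, and the median log2 fold was -0.01. Without IP 1, 0 were called higher and 2 lower, where 13.8% of all genes were called in either direction. Gnas, the Gs alpha subunit, had 0.05 (adjusted p = 0.966 by limma). The largest shifts were those of Prkar2b, a regulatory subunit of protein kinase A (-0.79, adjusted p = 0.201), and Rapgef4, an Epac (-0.69, adjusted p = 0.168). Arrestins and G protein-coupled receptor kinases, which silence receptors, had a median of -0.45 over 7 genes, with 0 called. Adrbk2 had -1.02 (adjusted p = 0.0574) and Grk4 -1.39 (adjusted p = 0.0662, and 0.0345 with the block, where 3.99% of all genes were lower). Without IP 1, 0 of these 7 were called higher and 2 lower, where again 13.8% of all genes were called.

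Many genes that cAMP and PACAP are known to induce were called higher in IP, and most of them respond to neuronal firing in general. Of 20 tested, 13 passed as higher and 0 as lower, where 0.892% of all genes passed as higher, and the median log2 fold of the 20 was 1.47. The 13 include Bdnf, which the study chose as a marker. The list was chosen with earlier results of these data known, so the count is no independent evidence. Fos, the classical marker of recent activity, stood at 69.7, 41.9 and 24.9 RPKM in IP 1, 2 and 3, against 8.71, 8.05 and 4.87 RPKM in inputs 1, 2 and 3 (log2 fold 2.42, adjusted p = 0.0161 by limma). Like Adcyap1, it was highest in warm challenge 1 and lowest in warm challenge 3 in both fractions. Of the 20, only 2 had that order, which 5.13% of all genes tested had. Crem, a transcription factor of the cAMP pathway, had 2.11 (adjusted p = 0.0155), and Gem, a small GTPase, had 2.23 (adjusted p = 0.0233). With 1 library left out, the call was lost in 4 of 6 omissions for Fos (without IP 2 or any input), in 3 for Crem (IP 2, inputs 2 and 3), in 3 for Gem (each input) and in 2 for Bdnf (inputs 2 and 3). Other cAMP targets gave no call: Stc1 had -0.06 (adjusted p = 0.922), Rgs2 0.10 (adjusted p = 0.836) and Pde4b, a cAMP phosphodiesterase, -0.29 (adjusted p = 0.658). The count was again 13 without IP 1, where 3.62% of all genes were higher. It was 7 without IP 2 or IP 3, 4 without input 1, and 1 without input 2 or input 3. Among all genes tested, 16 were called higher without IP 2 and 29 without IP 3. Without inputs 1, 2 and 3 these were 13, 4 and 6, against 110 with every library. With both libraries of a warm challenge left out, limma called 8 without warm challenge 1 and 0 without 2 or 3. Of all genes, 93, 1 and 2 were called higher without 1, 2 and 3. At an unadjusted p under 0.05, 14, 14 and 15 of the 20 were higher without 1, 2 and 3. The share of all genes higher at that unadjusted p was not computed. Of the 14 genes of this list with a promoter window, 10 hold TGACG in a window. A gene may have several windows, so the 20.8% of all windows is not a like share. The share over all genes was not computed, and such matches show no factor at work.

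**Figure D2:**
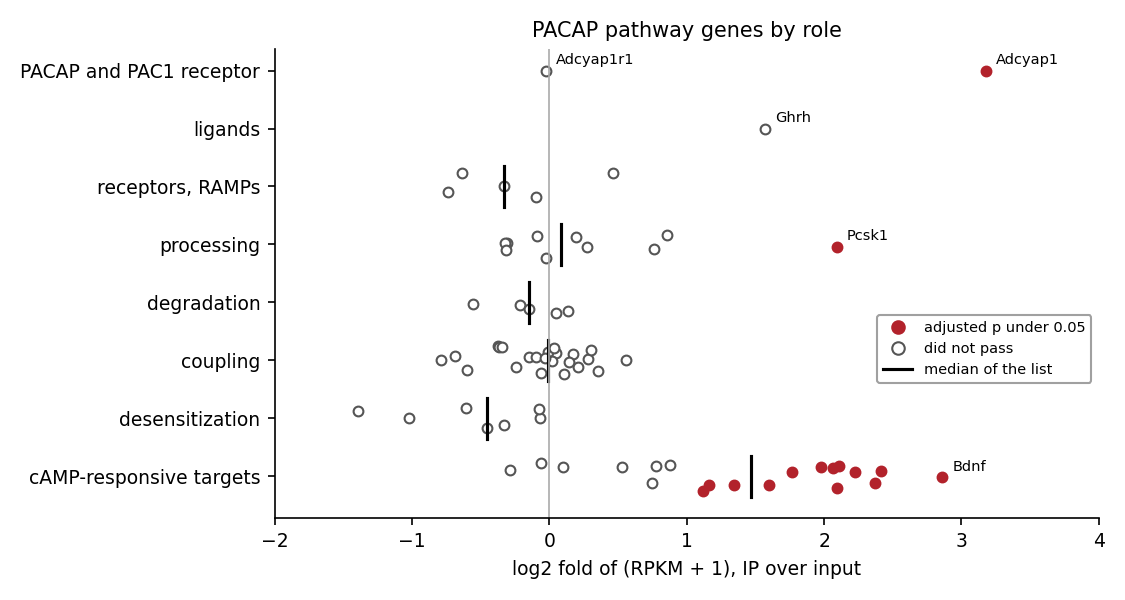
Log2 fold of RPKM + 1, IP over input, of each tested gene by its role in PACAP signalling; filled points had an adjusted p under 0.05, open points did not, and bars are medians. Adcyap1 at 3.18, Pcsk1 at 2.09 and 13 of 20 cAMP-responsive targets are filled, and no gene of coupling (median -0.01) or desensitization (median -0.45) is. Over all genes tested, 4.19% were called in either direction.

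Some genes of hypothalamic and striatal neurons also differed between warm challenges. The order of Adcyap1 over the warm challenges in both fractions, which 5.13% of all genes tested had, was found in 4 of 11 thermoregulatory genes, 2 of 4 of the paraventricular and supraoptic nuclei and 2 of 7 of the suprachiasmatic nucleus. It was found in 0 of 4 ventromedial, 0 of 6 preoptic and septal, 0 of 5 thalamic and 0 of 6 cortical and striatal genes. The genes described next and plotted by warm challenge were chosen after their values were seen. Gal, galanin, stood at 121, 93.0 and 43.5 RPKM in IP 1, 2 and 3, against 86.8, 40.3 and 10.8 RPKM in inputs 1, 2 and 3. Oxt, oxytocin, stood at 9.996, 7.18 and 0.592 RPKM in IP 1, 2 and 3, against 119.8, 78.0 and 5.71 RPKM in inputs 1, 2 and 3, so it had the order of Adcyap1 without its enrichment. A striatal gene had the opposite order. Ppp1r1b, which encodes DARPP-32, stood at 3.23, 42.7 and 376 RPKM in IP 1, 2 and 3, against 7.60, 16.1 and 126 RPKM in inputs 1, 2 and 3. The 7 listed cortical and striatal markers summed to 77.5 to 1114 RPKM in IP and 110 to 277 RPKM in input. Of the 6 tested, 0 were called, where 4.19% of all genes were called in either direction. Ppp1r1b had a log2 fold of 0.63 (adjusted p = 0.831 by limma) and Penk, the enkephalin precursor gene, 0.78 (adjusted p = 0.592), and both signs turned in omissions of 1 library. The part of dissection in the spread of Adcyap1 was not tested.

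**Figure D3:**
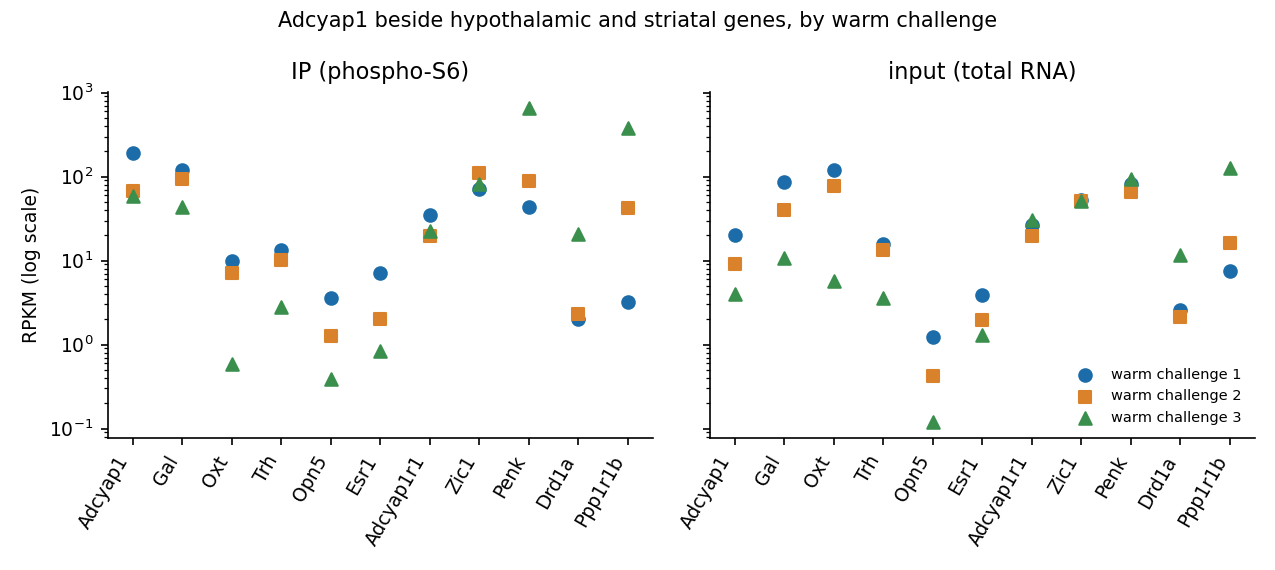
RPKM on a log axis of Adcyap1, Adcyap1r1 and hypothalamic and striatal genes in IP (left) and input (right), with a marker for each warm challenge. Adcyap1, Gal, Oxt, Trh, Opn5 and Esr1 are highest in warm challenge 1 and lowest in warm challenge 3 in both fractions, while Ppp1r1b and Drd1a are highest in warm challenge 3.

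Genes reported in preoptic warm-responsive or thermoregulatory neurons gave 2 calls higher and 0 lower among 11 tested, where 0.892% of all genes were called higher, with a median log2 fold of 0.60. The 2 were Bdnf (log2 fold 2.86, adjusted p = 0.0122 by limma) and Galr1, a galanin receptor (1.93, adjusted p = 0.0361, lost in every omission of 1 library but that of IP 1 and, at 0.0619, with a pseudocount of 5). The study chose Bdnf as a marker together with PACAP, so its call is no independent evidence for this list. The opsin Opn5 stood at 3.604, 1.28 and 0.392 RPKM in IP 1, 2 and 3, against 1.24, 0.418 and 0.119 RPKM in inputs 1, 2 and 3. Its IP to input ratio was 2.92, 3.06 and 3.29 in that order, yet the fractions overlapped and the fold did not pass (0.68, adjusted p = 0.357). Esr1, an estrogen receptor, had 0.12 (adjusted p = 0.914), a sign that turned without IP 1 or input 3, and Lepr, the leptin receptor, had -1.04 (adjusted p = 0.0562, and 0.0473 with the block).

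Neighbouring nuclei also hold PACAP cells, and their markers were examined beside those of the preoptic area, septum and thalamus. Among all genes tested, 0.892% were called higher and 3.29% lower (3.99% lower with the block). Of 7 tested genes of the suprachiasmatic nucleus, Nms, neuromedin S, was higher (log2 fold 2.02, adjusted p = 0.0266 by limma) and 0 were lower, with a median of 0.18. Of 4 genes of the paraventricular and supraoptic nuclei, Crh, corticotropin-releasing hormone, was higher (2.58, adjusted p = 0.00664), while Oxt had -2.93 (adjusted p = 0.125, and 0.0125 with the block) and the median was -0.72. Of 4 ventromedial genes 0 passed, and Fezf1 had 0.86 (adjusted p = 0.108) and Cbln1 0.92 (adjusted p = 0.154). Of 6 preoptic and septal genes 0 passed, and Gnrh1 had -2.10 (adjusted p = 0.0698, and 0.0304 with the block) and Zic1 0.72 (adjusted p = 0.106). Of 5 thalamic genes, Rorb was higher (1.47, adjusted p = 0.0236). The calls of Nms and Rorb were each lost in 4 of 6 omissions of 1 library, without IP 2 or any input, while that of Crh held in all 6. Among 8 pan-neuronal genes 0 passed and their median was 0.21, and the neurofilament genes Nefl and Nefm had 0.82 (adjusted p = 0.0976) and 0.77 (adjusted p = 0.105). Stmn2, Elavl4 and Syp of that list went the other way, at -0.53, -0.19 and -0.15. Outside the neurons, Rgs5 of mural cells (-1.32, adjusted p = 0.0305) and Ccdc153 of ependymal cells (-1.70, adjusted p = 0.0465, and 0.0773 after median scaling, the call also being lost with a pseudocount of 0.1, no filter, quantile normalization or no trend) were lower, the call of Rgs5 being lost in 4 and that of Ccdc153 in 5 of 6 omissions of 1 library. Rgs5 also lost it with quantile normalization. Of 2 tested microglial genes 0 passed, and Aif1 had -0.59 (adjusted p = 0.296) and C1qb -0.065 (adjusted p = 0.923), a sign that turned under both scalings.

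Over the 6 libraries, the levels most like that of Adcyap1 among the genes averaging at least 5 RPKM were those of Dom3z (Pearson r 0.992), Arhgap36 (0.992), Apold1 (0.987), Stim1 (0.984) and Rgs16 (0.983). The libraries share fraction and warm challenge, so r describes likeness and carries no test. Apold1 stood at 45.8, 23.3 and 12.3 RPKM in IP 1, 2 and 3, against 7.34, 3.86 and 1.76 RPKM in inputs 1, 2 and 3 (log2 fold 2.36, adjusted p = 0.0377 by limma). Arhgap36 stood at 193, 89.1 and 67.2 RPKM in IP 1, 2 and 3, against 41.4, 28.2 and 17.1 RPKM in inputs 1, 2 and 3 (1.91, adjusted p = 0.0426). Both had the order of Adcyap1 over the warm challenges in each fraction. That order and their higher level in IP follow in part from choosing them by these same values. With 1 library left out, Apold1 lost its call in 4 of 6 omissions (without IP 2 or any input) and Arhgap36 in 5 (all but that of IP 1), and Arhgap36 also lost it with quantile normalization. The other 3 did not pass: Dom3z had a log2 fold of 0.90 (adjusted p = 0.0808 by limma), Stim1 0.48 (0.205) and Rgs16 1.08 (0.0684). With the block, Dom3z (0.0489) and Rgs16 (0.0372) passed and Stim1 (0.138) did not. Bdnf ranked 11 by likeness of level (r 0.976) and Crh ranked 17 (r 0.969).

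With the mean of each fraction taken out, the nearest to Adcyap1 were Rcn1, Ddrgk1, Pcyox1, Pfkfb3 and Fam134a (r 0.995 to 1.000), and Bdnf ranked 246 (r 0.889). None of these 5 passed, with log2 folds from -0.56 to 0.50. The levels most like that of Adcyap1r1 were those of Akap11, Wdfy3, 4932438A13Rik, Htt and Ogt (r 0.984 to 0.995). Their log2 folds were -0.13 to 0.03 with none called, which follows in part from choosing them by likeness of level. With the fraction means taken out they were Aff2, Gbf1, Akap11, Jhdm1d and Atl3 (r 0.997 to 0.998). Akap11, an anchoring protein of protein kinase A, is in both sets. Its log2 fold was 0.02 and that of Adcyap1r1 -0.03, so both measures are nearly the same for this pair.

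**Figure D4:**
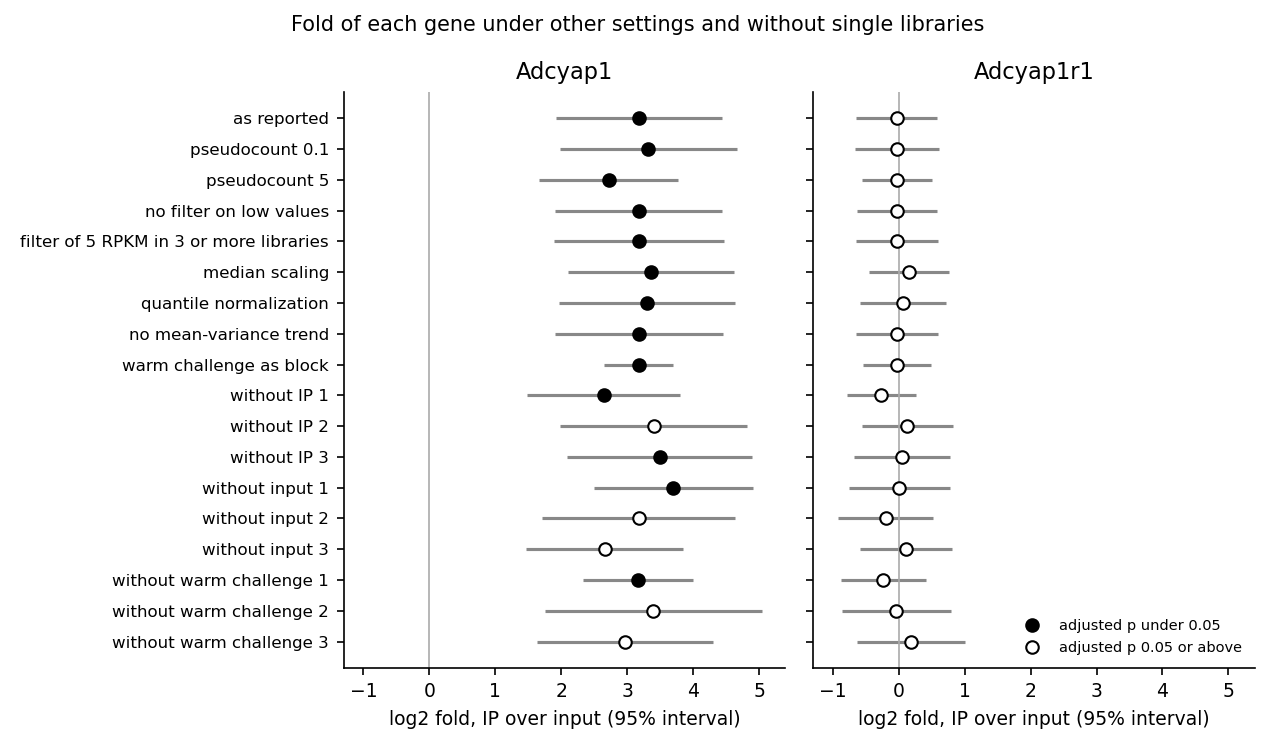
Log2 fold, IP over input, with its 95% interval for Adcyap1 (left) and Adcyap1r1 (right) as reported, under other settings and without single libraries or whole warm challenges; filled points had an adjusted p under 0.05. The fold of Adcyap1 lies between 2.64 and 3.70 in all of these fits with a call in 12 of 17 alternatives, and that of Adcyap1r1 lies between -0.26 and 0.19 with none.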

How the data were processed

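Per the file headers, the authors' values are linear RPKM per gene, with a column for each library and none pooled. The submitters' processing notes name mm9 as the build. No aligner, counter or annotation was named in the sources used. Every value is at or above 0.101 RPKM. Absolute depth is unknown, and the most frequent ratio of low values (0.15 to 0.6 RPKM) to input 1 was 0.625 to 0.844, which as a ratio of single reads would put relative depth between 1 and 1.60.

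Genes reaching 1 RPKM in 3 or more libraries (12328) were analysed as log2(RPKM + 1) with limma 3.58.1 (trend, two-sided, no block) in R 4.3.3, with Benjamini-Hochberg adjustment over all of them and a threshold of 0.05. The limma fit was tested on simulated data. The remaining values and the plots came from Python 3.11.15 (numpy 2.4.6, matplotlib 3.10.9, pandas 2.3.3). Other pseudocounts, filters, scalings, a block and omissions were alternatives.

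The genes and the 21 lists were chosen with earlier results of these data known, so counts within the lists are no independent evidence. Besides both genes, the 2 members of each list with the largest folds past the threshold, or with the smallest p where none passed, are named, as are the 5 genes most like each by Pearson correlation. Others were chosen after their values were seen. The labels give IP and input of a warm challenge the same number, and both were taken as a pair for that reason. Within pairs, deviations from group means correlated by 0.05, 0.61 and 0.27 across genes. The input with the highest such correlation was input 3 for IP 1, input 2 for IP 2 and input 3 for IP 3. The pairing of warm challenge 1, used in the block and in the ratios, thus rests on the labels alone.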

Additional observations from a re-analysis of the deposited data

How the results depend on the processing

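The fold of Adcyap1 was positive in every alternative and kept its call under both pseudocounts, both filters, both scalings, no trend and the replicate block (8 of 8). It kept it in 3 of 6 omissions of 1 library, with log2 folds from 2.64 to 3.70. With a whole warm challenge left out, folds were 2.97 to 3.40 and 1 of 3 calls held. Adcyap1r1 had no call anywhere. Its log2 fold was 0.16 with median scaling and 0.066 with quantile normalization, -0.26 to 0.13 without 1 library and -0.23 to 0.19 without a warm challenge. The Adcyap1 to Adcyap1r1 difference was 2.64 to 3.91 without 1 library and 3.20 with a pseudocount of 1. Paired by warm challenge, it was 3.37 (exact sign-flip test, p = 0.25, the smallest for 3 pairs).

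Genes higher in IP numbered 110, and 164 with the block, 4 to 443 without 1 library and 1 to 93 without a warm challenge. Genes lower in IP numbered 406, and 492 with the block, 128 with median scaling, 123 with quantile normalization, 17 to 1250 without 1 library and 0 to 115 without a warm challenge. Omissions leave fewer samples. Where limma called 0 genes lower, without warm challenge 2, 1044 had an unadjusted p under 0.05. Over 714 alternatives for list counts, 94 moved by over 1.5 times, 77 of them omissions.

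Of 808 alternative folds of 49 other named genes, 12 turned sign, 109 lost a call (101 of them in omissions) and 18 gained one. The log2 fold of Penk was -0.35 to 1.59 without 1 library and that of Ppp1r1b -0.96 to 2.27, with -0.24 for Penk without warm challenge 3. C1qb, a microglial gene, gave 0.075 with median scaling, 0.20 with quantile normalization, 0.18 without warm challenge 1 and -0.39 to 0.14 without 1 library. Esr1 gave -0.17 without warm challenge 1 and -0.47 to 0.60 without 1 library. Vipr1 and Vipr2 were not run. Absolute depth is unknown, so no counting error can be given.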
